A study of Homo sapiens with 20 samples.

Results

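The metallothionein and zinc response genes of MM1.S cells were described here from SLAM-seq libraries of cells in which CBP and p300 were degraded. The set held 7 of the 19617 genes in the files: the metallothioneins MT1X, MT2A, MT1E, MT1F and MT1G, the transcription factor MTF1 and the zinc exporter SLC30A1. It was chosen on the basis of the rise of MT1X in the 2 h libraries, so every value of a member at 2 h is given as a description with no test. Each gene was read through the GENCODE transcript with the most reads over all 20 libraries. MM1.S is an established human multiple myeloma cell line, a tumour line of plasma cell origin. Treatment was with 10 nM dCBP-30, which degrades the paralogous acetyltransferases CBP and p300, or with DMSO as vehicle and lasted 2, 6 or 24 h, and 3 libraries were made for each of the 6 groups. In these 18 libraries the cells had taken up 4-thiouridine (4sU) for the 1 h before harvest, and 2 further libraries came from cells without 4sU. All libraries came from 1 cell line, and no source used here says that the 3 libraries of a group were separate experiments, so p-values measure the spread between these libraries.

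Metallothioneins are small, cysteine-rich proteins that bind zinc and copper and buffer the free metal of the cell. MTF1 is a zinc finger factor that binds zinc itself, enters the nucleus and switches on genes that carry short metal response elements in their promoters. Its classical targets are the metallothioneins and SLC30A1, also called ZnT1, which carries zinc out across the plasma membrane. In addition to metal, glucocorticoids, oxidants and low oxygen raise metallothionein RNA, and p300 has been described as a cofactor of MTF1.

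The promoters of 4 members were in the RefSeq table of GRCh38.p14, those of MT1X, MT2A, SLC30A1 and MTF1. Those of MT1X, MT2A and SLC30A1 are shown because each held a match to the core of the metal response element. These members moved in different directions, and a link between matches and direction was not tested. Each line gives the 250 bases before the transcription start, 5′ to 3′ on the strand of the gene, and capitals mark the core of the metal response element, searched as TGCACNC or TGCGCNC on both strands with no 2 matches overlapping. They cover chr16:56682220-56682469 (plus strand), chr16:56608334-56608583 (plus strand) and chr1:211579162-211579411 (minus strand).
MT1X: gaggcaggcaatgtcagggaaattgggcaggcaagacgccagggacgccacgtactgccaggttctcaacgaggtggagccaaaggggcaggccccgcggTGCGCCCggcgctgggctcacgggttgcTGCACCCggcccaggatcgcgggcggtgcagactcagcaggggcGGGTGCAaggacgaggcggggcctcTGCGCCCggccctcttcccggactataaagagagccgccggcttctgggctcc
MT2A: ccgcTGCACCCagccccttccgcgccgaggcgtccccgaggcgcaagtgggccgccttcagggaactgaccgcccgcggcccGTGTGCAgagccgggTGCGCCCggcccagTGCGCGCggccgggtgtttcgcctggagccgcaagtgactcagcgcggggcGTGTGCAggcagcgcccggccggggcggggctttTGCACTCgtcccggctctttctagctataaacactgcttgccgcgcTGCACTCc
SLC30A1: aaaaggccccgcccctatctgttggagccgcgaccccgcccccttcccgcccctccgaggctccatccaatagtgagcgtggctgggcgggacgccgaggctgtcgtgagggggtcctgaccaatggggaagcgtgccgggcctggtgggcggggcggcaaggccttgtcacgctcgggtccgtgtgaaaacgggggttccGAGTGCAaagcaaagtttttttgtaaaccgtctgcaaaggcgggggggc
MT1X held 4 cores and MT2A held 7, whereas SLC30A1 held 1, on the opposite strand and 43 to 49 bases before the start. No core was in the same window of MTF1. Of all 35116 promoters in the table, 24.83% held at least 1 core and 0.3702% held at least 4. A match is a description of the letters and not a bound site.

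The libraries held 12440700 to 18729086 reads each. Reads with T>C conversions stand for RNA made during the labelling, and total reads stand for the whole pool of a transcript. Levels are RPM, the reads of a gene scaled to a common library size by total reads and TMM factors, and a change was called at an adjusted p under 0.05 and more than 2-fold in edgeR's quasi-likelihood test over all genes. The plasma cell identity of the line was clear in its markers, as 10 of 10 had a median above 1 RPM, against 1 of 17 markers of other cell types, the T cell gene CD3E at a median of 4.74 RPM. Since all values are shares of a library, RNA per cell and number of cells cannot be told apart.

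The metallothioneins were weakly covered. MT1X had 1015 reads over the 20 libraries, MT2A had 962 and MT1F had 523, each spread over most libraries. In contrast, MT1G had 6 reads, all in replicate 2 of dCBP-30 at 6 h, and MT1E had 1 read, which also mapped elsewhere, in replicate 3 of DMSO at 6 h. For these 2 genes a count of 0 in a library allows up to 3 reads, and no difference was detectable at this depth. Because the genes of the family are alike, multimapping was examined. Reads that also mapped elsewhere made up 28.5% of the MT1X reads and 0% of the MT2A and MT1F reads, compared with 0.152% for MTF1 and 0.195% for SLC30A1. The last 150 bases of MT1X shared a run of at most 19 bases with another gene of the family, and those of MT1F 22. Where the MT1X reads also mapped was not examined. Such reads were subtracted in total reads only, so the T>C reads of MT1X were not checked for them. In addition, the 3′ UTR of MT1X lies within the span of a lncRNA gene on the same strand, ENSG00000259827. Whether an exon of this lncRNA overlaps the 3′ UTR was not examined, and its reads were not separated from those of MT1X. Of the 7 members, 5 passed the filter on low counts in total reads (not MT1E and MT1G), and 3 passed it in T>C reads (MT1X, MTF1 and SLC30A1). MT1F passed through its dCBP-30 libraries at 6 and 24 h and MT1X passed in T>C reads through its dCBP-30 libraries at 2 h, so the counts of called members below are a description.

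The gene that chose the set was MT1X, on chromosome 16 with its 3′ UTR between 56683278 and 56684196 of hg38. At 2 h its T>C reads were 18, 40 and 33 in the dCBP-30 libraries and 1, 2 and 0 in the DMSO libraries, and the groups did not overlap. The mean level was 28.7 times that in DMSO, on 3 DMSO reads in all. Total reads of MT1X at 2 h were 54, 85 and 79 with dCBP-30 and 38, 54 and 23 with DMSO, a ratio of mean levels of 1.80. At 2 h, T>C reads thus made up 40.7% ± 6.92 (SD, n = 3) of the MT1X reads with dCBP-30 and 2.11% ± 1.91 (SD, n = 3) with DMSO.

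The T>C reads of MT1X in vehicle were not the same at each time. In DMSO at 6 h they were 9, 15 and 11, and all 3 dCBP-30 libraries at 6 h lay lower on the RPM scale, with 10, 7 and 7 reads. As a share of the gene's reads this was 32.7% ± 4.70 (SD, n = 3) in DMSO and 10.3% ± 2.73 (SD, n = 3) in dCBP-30. The fitted difference at 6 h was a log2 fold change of -0.75 (SE 1.00) that did not pass the test (edgeR adjusted p = 0.661). At 24 h MT1X had 6, 4 and 3 T>C reads with dCBP-30 and 6, 0 and 1 with DMSO, and the groups overlapped (log2 fold change 0.60, SE 1.14, edgeR adjusted p = 0.723). The high T>C signal of MT1X in dCBP-30 was seen in the 2 h libraries and was not detectable at 6 or 24 h with these counts.

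**Figure D1:**
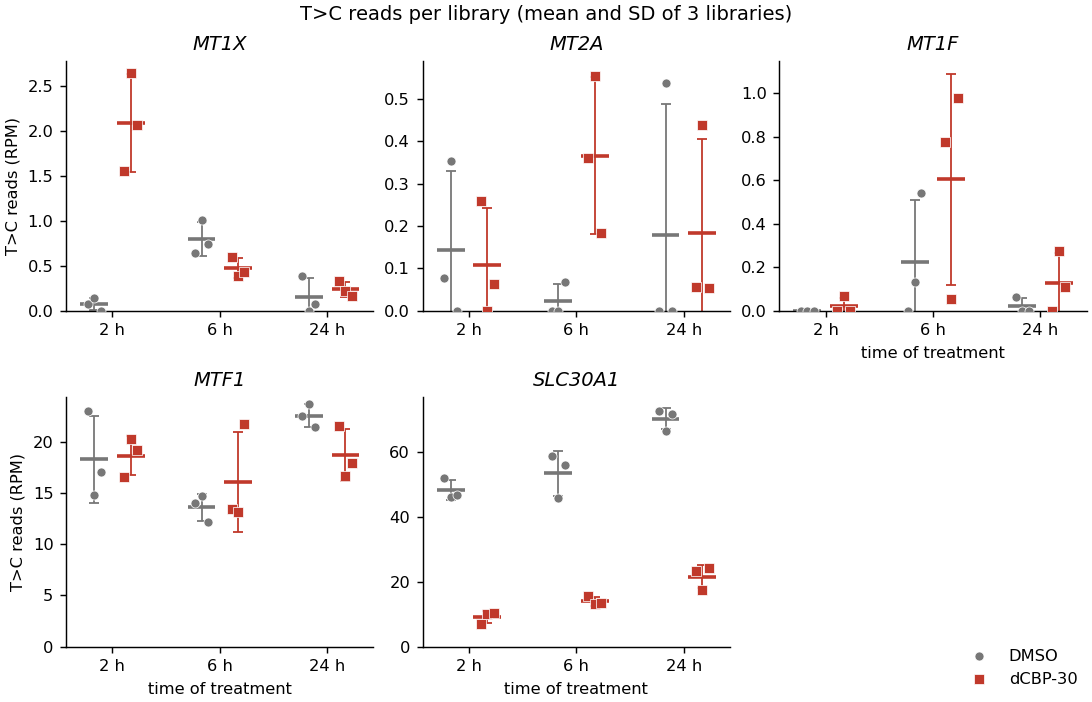
T>C reads of 5 members in RPM (vertical axis, linear, one scale per gene) in the 3 DMSO (grey circles) and 3 dCBP-30 (red squares) libraries at 2, 6 and 24 h; horizontal bars are means and error bars are SD. MT1X stands above DMSO in dCBP-30 at 2 h, with a mean of 2.09 against 0.0727 RPM, and SLC30A1 lies below DMSO at all times.

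The total pool of MT1X was higher in every dCBP-30 library than in any DMSO library of its time point. At 2 h this held for 9.85% of all genes tested, and the share was not counted at 6 or 24 h. Separation of groups at 6 and 24 h, here and for the other members, is thus a description. At 6 h the dCBP-30 libraries held 110, 83 and 52 reads and the DMSO libraries 32, 40 and 34, with means of 4.79 ± 1.71 and 2.42 ± 0.23 RPM (SD, n = 3), without overlap. This difference of 0.99 on the log2 scale (SE 0.41) did not pass the test (edgeR adjusted p = 0.0599). With each of the 18 libraries left out in turn it ran from 0.69 to 1.21, with edgeR adjusted p from 0.0363 to 0.254. Among these fits it was called only without replicate 3 of dCBP-30 at 6 h (1.21, adjusted p = 0.0363). At 24 h there were 56, 94 and 61 reads with dCBP-30 and 21, 13 and 34 with DMSO, with means of 3.83 ± 1.16 and 1.53 ± 0.86 RPM (SD, n = 3), again without overlap. The log2 fold change of 1.33 (SE 0.43, edgeR adjusted p = 0.0099) was called, whereas it did not pass without replicate 2 of dCBP-30 at 24 h (1.06, adjusted p = 0.0597) or without replicate 2 of DMSO at 24 h (1.01, adjusted p = 0.0669). After the multimapping reads had been subtracted, the log2 fold change was 1.03 at 6 h (edgeR adjusted p = 0.119) and 1.53 at 24 h (edgeR adjusted p = 0.0186).

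MT2A, the most widely expressed metallothionein, lies on chromosome 16 with its 3′ UTR from 56609186 to 56609494. Its total reads at 2 h were 35, 53 and 33 with dCBP-30 and 41, 29 and 17 with DMSO, and the groups overlapped. At 6 h they were 65, 85 and 32 with dCBP-30 and 9, 25 and 32 with DMSO, and replicate 3 of dCBP-30 lay within the DMSO range. MT2A was called higher at 6 h (log2 fold change 1.23, SE 0.47, edgeR adjusted p = 0.0401). That call did not hold without replicate 1 (adjusted p = 0.0882) or 2 (adjusted p = 0.16) of dCBP-30 at 6 h, or without replicate 1 (adjusted p = 0.169) or 2 (adjusted p = 0.0694) of DMSO at 6 h. At 24 h all 3 dCBP-30 libraries, with 87, 138 and 124 reads, stood above the DMSO libraries, with 20, 37 and 37 reads, and means were 6.33 ± 1.44 and 2.06 ± 0.70 RPM (SD, n = 3). Here MT2A rose 3.07-fold (log2 fold change 1.62, SE 0.46, edgeR adjusted p = 0.0041), and the call remained when any single library was left out, with adjusted p up to 0.0269.

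The T>C reads of MT2A were too few to be tested, although 1 time point stood apart. At 6 h there were 6, 10 and 3 T>C reads with dCBP-30 and 0, 0 and 1 with DMSO, without overlap. At 2 h there were 4 and 6 T>C reads over the 3 libraries of dCBP-30 and of DMSO, and at 24 h there were 10 and 9. When no filter was applied, MT2A at 6 h had a log2 fold change of 3.60 (SE 2.07) that did not pass the test (edgeR adjusted p = 0.268).

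MT1F showed the largest fold change among the members tested in total reads. Its 3′ UTR lies in 2 blocks between 56658782 and 56659305 of chromosome 16. In vehicle it was near the limit of detection, with 0, 1 and 0 reads at 2 h, then 6, 2 and 9 at 6 h, and 5 in each library at 24 h. The dCBP-30 libraries held 5, 1 and 9 reads at 2 h, but 56, 104 and 74 at 6 h. After 24 h they held 105, 69 and 66. The groups thus overlapped at 2 h and were apart at both later times. MT1F had a fitted fold change of 11.5 at 6 h (log2 fold change 3.52, SE 0.66, edgeR adjusted p = 0.000125) and of 13 at 24 h (3.70, SE 0.67, edgeR adjusted p = 3.67e-05). Mean levels at 24 h were 4.36 ± 1.21 RPM with dCBP-30 and 0.33 ± 0.03 RPM with DMSO (SD, n = 3). Since MT1F entered the test only through these dCBP-30 libraries, its values are a description and its adjusted p is given for completeness. T>C reads of MT1F varied strongly between libraries of a group, with 13, 1 and 16 in dCBP-30 and 0, 2 and 8 in DMSO at 6 h, and were too few to be tested.

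Summed over the 5 metallothioneins, total reads stood at 8.29 ± 0.82 RPM with dCBP-30 and 4.997 ± 1.74 RPM with DMSO at 2 h, at 12.98 ± 2.96 and 4.32 ± 0.93 RPM at 6 h, and at 14.5 ± 1.74 and 3.92 ± 1.38 RPM at 24 h (SD, n = 3). The corresponding ratios of means were 1.66, 3.002 and 3.70. MT1X held the largest part of the dCBP-30 reads at 2 h (218 of 354) and MT2A at 24 h (349 of 800). The 7 other family members in the files, among them MT1A, MT1H, MT1M and MT3, had 0 reads in every library, which allows up to 3 reads in each.

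**Figure D2:**
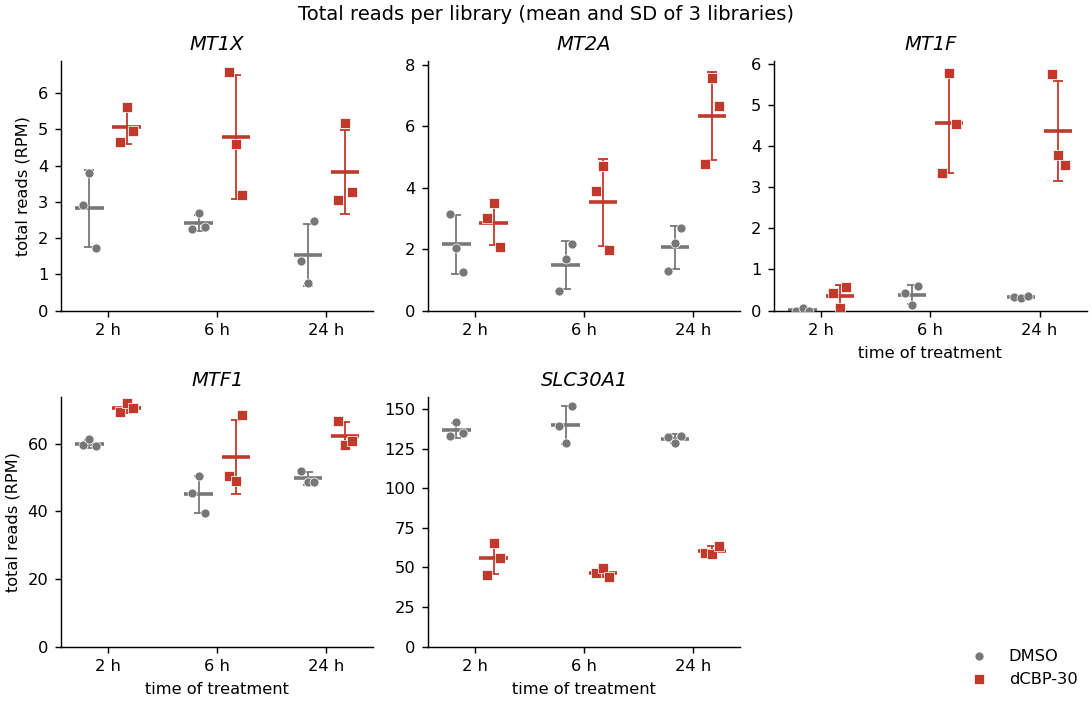
Total reads of 5 members in RPM (vertical axis, linear from 0, one scale per gene) in the 3 DMSO (grey circles) and 3 dCBP-30 (red squares) libraries at 2, 6 and 24 h; horizontal bars are means and error bars are SD. MT1F separates at 6 and 24 h, MT2A at 24 h, and SLC30A1 lies in dCBP-30 at less than its DMSO level throughout.

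MTF1, the zinc sensor, was called at neither of the tested times. Its 3′ UTR lies on the minus strand of chromosome 1 from 37809574 to 37815135. Total reads were 803, 1093 and 1128 with dCBP-30 and 774, 870 and 793 with DMSO at 2 h, 844, 882 and 1120 against 641, 752 and 581 at 6 h, and 1222, 1087 and 1132 against 803, 816 and 671 at 24 h. The groups were apart at 2 and 24 h and overlapped at 6 h on the RPM scale. The fitted log2 fold changes were 0.31 (SE 0.13, edgeR adjusted p = 0.0544) at 6 h and 0.33 (SE 0.13, edgeR adjusted p = 0.0318) at 24 h, of which the second passed the adjusted p at 1.25-fold and stayed below the fold needed for a call. In T>C reads MTF1 had a log2 fold change of 0.24 (SE 0.21, edgeR adjusted p = 0.462) at 6 h. At 24 h the value was -0.27 (SE 0.20, edgeR adjusted p = 0.318), and its sign turned to 0.38 when libraries were scaled on their T>C reads. T>C reads as a share of MTF1 reads were 29.9% ± 2.20 with dCBP-30 and 45.4% ± 2.99 with DMSO at 24 h (SD, n = 3).

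SLC30A1, the exporter, was lower with dCBP-30 than with DMSO in every library of each time point. Its 3′ UTR lies on the minus strand of chromosome 1 from 211571568 to 211575387. At 2 h its T>C reads were 80, 151 and 165 with dCBP-30 and 676, 657 and 629 with DMSO, and the mean level was 5.34-fold lower with dCBP-30. Total reads at 2 h were 527, 994 and 898 with dCBP-30 and 1728, 2011 and 1801 with DMSO, and the mean level was 2.45-fold lower. No library of one group reached the range of the other in either measure.

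In T>C reads SLC30A1 fell at both later times. Mean levels at 6 h were 14.0 ± 1.37 RPM with dCBP-30 and 53.5 ± 6.82 RPM with DMSO (SD, n = 3), a log2 fold change of -1.93 (SE 0.18, edgeR adjusted p = 7.4e-14). At 24 h the means were 21.7 ± 3.61 and 70.4 ± 3.30 RPM (SD, n = 3), a log2 fold change of -1.70 (SE 0.17, edgeR adjusted p = 2.44e-12). In total reads there were 775, 898 and 715 reads with dCBP-30 and 1970, 1916 and 2241 with DMSO at 6 h, and SLC30A1 fell 2.996-fold (log2 fold change -1.58, SE 0.12, edgeR adjusted p = 5.87e-11). At 24 h 1084, 1068 and 1188 reads stood against 2043, 2151 and 1837, and it fell 2.17-fold (-1.12, SE 0.12, edgeR adjusted p = 1.26e-08). The fall at 24 h lost its 2-fold size, though not its direction, when total reads were scaled without TMM factors (-0.59, adjusted p = 0.000129) and when T>C reads were fitted in DESeq2 with their own size factors (-0.96).

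Ordered by total reads, SLC30A1 in DMSO stood at 140 ± 11.8 RPM at 6 h, 136 ± 4.73 RPM at 2 h and 131 ± 2.65 RPM at 24 h. These DMSO groups were not apart beyond their spread. The dCBP-30 groups followed at 60.6 ± 2.76 RPM at 24 h, 55.8 ± 10.1 RPM at 2 h and 46.7 ± 3.01 RPM at 6 h (SD, n = 3). The 2 libraries without 4sU had 123.1 ± 13.7 RPM (SD, n = 2). They were scaled by total reads with no TMM factor and have no place in this order. Within dCBP-30 the 2 h libraries overlapped both neighbours, whereas those at 24 h, from 58.7 to 63.7 RPM, stood above those at 6 h, from 43.8 to 49.8 RPM. T>C reads as a share of SLC30A1 reads were at 2 h 16.2% ± 1.84 with dCBP-30 and 35.6% ± 3.27 with DMSO (SD, n = 3). They were 30.2% ± 3.65 against 38.2% ± 3.46 after 6 h, where the groups lay closest, and 35.7% ± 5.07 against 53.6% ± 1.51 after 24 h (SD, n = 3). The share without 4sU was 0.59%, the background of the method.

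**Figure D3:**
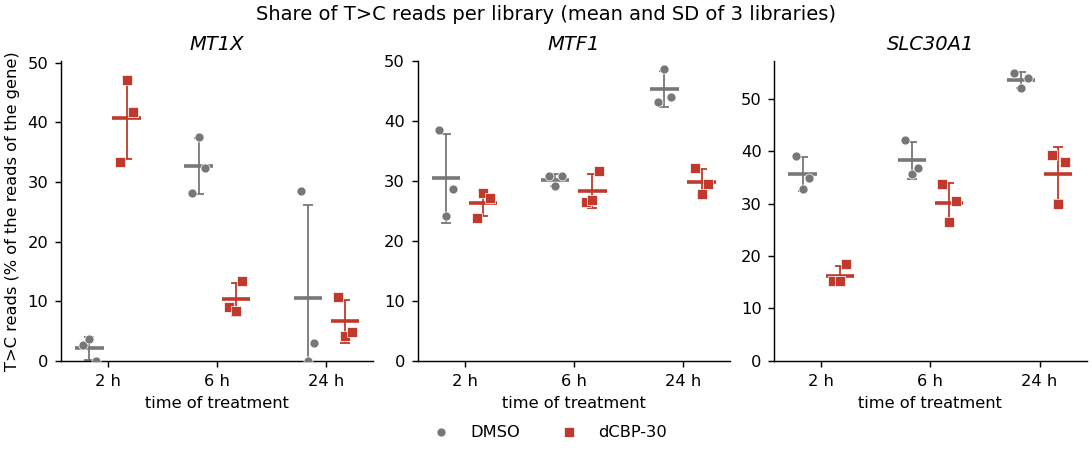
T>C reads as a percentage of all reads of the gene (vertical axis) for MT1X, MTF1 and SLC30A1 in the 3 DMSO (grey circles) and 3 dCBP-30 (red squares) libraries at 2, 6 and 24 h; horizontal bars are means and error bars are SD. MT1X has a higher share with dCBP-30 at 2 h and a lower one at 6 h, while the share of SLC30A1 is lower with dCBP-30 at each time.

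Libraries at 24 h differed as a whole. Conversions per T>C read were 1.43 to 1.51 with dCBP-30 and 2.46 to 2.51 with DMSO at 24 h, compared with 2.12 to 2.27 in all groups at 2 and 6 h. T>C reads made up 5.92% to 6.86% of all reads with dCBP-30 and 8.15% to 8.62% with DMSO at 24 h. The median log2 fold change of T>C reads over the 10086 genes tested was -0.27 at 6 h and -0.69 at 24 h, and it moved to 0.04 and -0.04 when libraries were scaled on their T>C reads. The part of these library-wide differences in the T>C values of the members was not tested. In total reads, without TMM factors, the median over the 12272 genes tested moved from 0.02 to 0.35 at 6 h and from 0.05 to 0.58 at 24 h.

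Against all genes, the members' counts were as follows. In total reads 2 of the 5 tested members were called higher at 6 h (MT2A and MT1F), where 7.47% of all genes tested were, and 1 was called lower (SLC30A1), where 8.67% were. At 24 h 3 were called higher (MT1X, MT2A and MT1F), with 15.0% of all genes, and 1 lower (SLC30A1), with 16.1%. The median log2 fold change of the tested members was 0.99 at 6 h and 1.33 at 24 h. At both times this median was the value of MT1X itself, the gene that chose the set. MT1F, also among the tested members, passed the filter through its dCBP-30 libraries. The median is therefore a description. In T>C reads 0 of 3 members were called higher by edgeR at 6 h and at 24 h, with 2.36% and 2.17% of all genes, and 1 was called lower each time (SLC30A1), with 17.1% and 31.2%. DESeq2 called 0 higher as well, and 0 were higher at an unadjusted p under 0.05. No count of members at 2 h is tested. In T>C reads MT1X lay in every dCBP-30 library above every DMSO library at 2 h, as did 11.6% of all genes, and SLC30A1 below, as did 14.6%. In total reads MT1X and MTF1 lay above at 2 h, with 9.85% of all genes, and SLC30A1 below, with 10.1%. Such shares were not counted at 6 or 24 h.

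**Figure D4:**
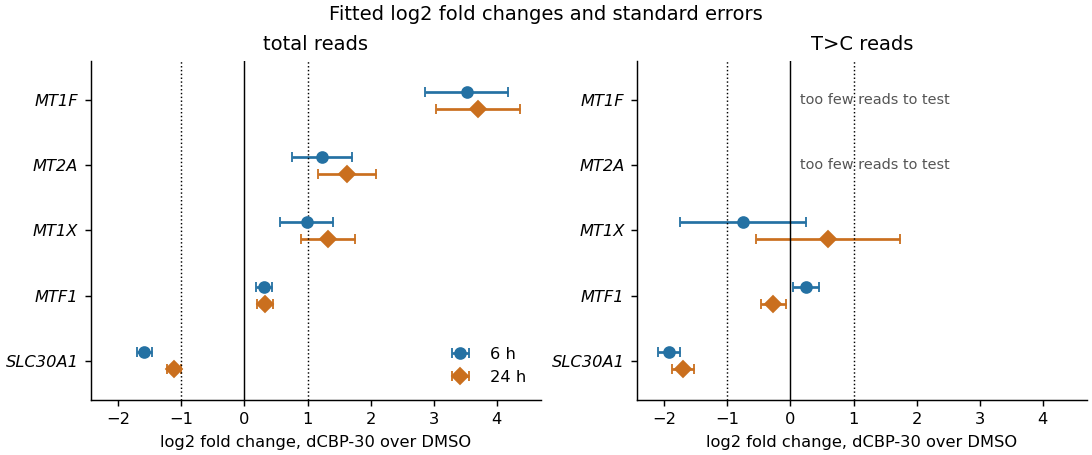
Fitted log2 fold changes of dCBP-30 over DMSO (horizontal axis) with standard errors for total reads (left) and T>C reads (right) at 6 h (blue circles) and 24 h (orange diamonds); dotted lines mark 2-fold. MT1F lies at 3.52 and 3.70 and SLC30A1 at -1.58 and -1.12 in total reads, and MT1F and MT2A had too few T>C reads to be tested.

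Whether the response at 24 h differed from that at 6 h was tested as the difference of the log2 fold changes. No member was called in total reads (8.45% of all genes were called higher and 9.70% lower) or in T>C reads (2.56% and 8.50%). In total reads the fold change of SLC30A1 was 0.47 higher at 24 h than at 6 h (SE 0.17, edgeR adjusted p = 0.0321), which is less than 2-fold. For the other 4 members the adjusted p lay between 0.705 and 0.967 by edgeR. The standard errors of these differences were 0.59 for MT1X, 0.66 for MT2A and 0.90 for MT1F. At an unadjusted p under 0.05 the count of members was 1 in total reads (SLC30A1) and 0 in T>C reads, and DESeq2 called 0 in both. In vehicle cells alone, total reads of the 5 members at 24 h against 6 h ran from -0.67 (MT1X) to 0.46 (MT2A) on the log2 scale, 0 were called by edgeR or DESeq2, and 0 had an unadjusted p under 0.05 (edgeR adjusted p 0.685 to 0.959). In T>C reads of vehicle cells 0 of the 3 tested members were called by edgeR or DESeq2. At an unadjusted edgeR p under 0.05, 2 of them were higher at 24 h and 1 lower, where the median over all genes was 0.43.

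Other genes of zinc handling were followed as lists, chosen with earlier results of these data known. Among the other zinc exporters 5 of 9 were tested in T>C reads and 6 in total reads. SLC30A4, which fills vesicles with zinc, rose in T>C reads at 6 h from 0.186 ± 0.178 to 1.57 ± 1.35 RPM (SD, n = 3; log2 fold change 3.03, SE 1.04, edgeR adjusted p = 0.0251), a call that was lost without replicate 3 of dCBP-30 or replicate 2 or 3 of DMSO at 6 h (adjusted p up to 0.215), with reads summed over transcripts (adjusted p = 0.134) and with background subtracted (adjusted p = 0.0524). Its mean T>C level in DMSO was 0.33 RPM at 2 h and 0.49 RPM at 24 h, against 1.48 RPM with dCBP-30 at 2 h. SLC30A4 thus passed the filter on low counts in T>C reads through its dCBP-30 libraries. Its T>C call, and its place in the counts below, are a description. In total reads SLC30A4 rose by 2.17 on the log2 scale at 6 h (SE 0.37, edgeR adjusted p = 3.69e-05) and by 1.81 at 24 h (SE 0.35, edgeR adjusted p = 0.000101). SLC30A7, an exporter into the Golgi, fell in T>C reads at 24 h (-1.19, SE 0.35, edgeR adjusted p = 0.00429), but was not called when libraries were scaled on their T>C reads. Hence 1 of 5 rose and 0 fell at 6 h and 0 rose and 1 fell at 24 h in T>C reads, in which 2.36% of all genes were higher and 17.1% lower at 6 h and 2.17% and 31.2% at 24 h. In total reads 2 of 6 rose at 6 h and 1 at 24 h with 0 falling, where 7.47% and 15.0% of all genes were higher. Beside SLC30A4, SLC30A3 rose at 6 h by 3.07 on the log2 scale (SE 0.38, edgeR adjusted p = 3.45e-07). It was not called at 24 h (0.36, SE 0.36, edgeR adjusted p = 0.397). DESeq2 gave the same counts, and at an unadjusted p under 0.05 every count of 0 stayed at 0.

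Zinc importers of the SLC39 family fell or were not called in T>C reads, in which 10 of 14 were tested; 0 rose by edgeR, by DESeq2 or at an unadjusted p under 0.05. At 6 h 2 fell, SLC39A4, the intestinal zinc importer (-2.19, SE 0.57, edgeR adjusted p = 0.00229), and SLC39A14, which also carries iron and manganese (-1.82, SE 0.50, edgeR adjusted p = 0.00388); the call of SLC39A14 was lost without replicate 3 of DMSO at 6 h (adjusted p = 0.0521). At 24 h 4 fell, with SLC39A8, a zinc and manganese importer, from 7.59 ± 1.79 to 0.38 ± 0.11 RPM (SD, n = 3; -4.29, SE 0.45, edgeR adjusted p = 6.24e-12). SLC39A4 at 24 h (-1.80, SE 0.55, edgeR adjusted p = 0.00688) was not called without replicate 2 of dCBP-30. With T>C scaling 3 of the 4 calls at 24 h were lost, those of SLC39A4 (-1.19, adjusted p = 0.1), SLC39A14 (-0.59, adjusted p = 0.382) and SLC39A3 (-0.40, adjusted p = 0.437), and SLC39A8 alone remained. The counts of 2 and 4 of 10 stand beside 17.1% and 31.2% of all genes called lower at 6 and 24 h, and nothing particular to the list is read from them. The list's median in T>C reads was -0.95 at 6 h and -0.90 at 24 h, against -0.27 and -0.69 over all genes. In total reads 1 of 11 fell and 0 rose at 6 h (3 were higher at an unadjusted p under 0.05, 0 in DESeq2), and 2 fell and 1 rose at 24 h, where SLC39A8 fell by 2.22 (SE 0.13, edgeR adjusted p = 1.07e-13) and SLC39A4 by 1.92 (SE 0.14, edgeR adjusted p = 1.4e-11) on the log2 scale. The 1 that rose at 24 h was SLC39A13 (log2 fold change 1.44, edgeR adjusted p = 1.09e-08). Over all genes in total reads 7.47% were higher and 8.67% lower at 6 h, and 15.0% and 16.1% at 24 h.

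Copper shares the metallothioneins with zinc, and 12 of 13 copper handling genes were tested in T>C reads. At 6 h 3 fell and at 24 h 3 fell, with 0 rising at either time in edgeR; at 6 h 1 gene was higher at an unadjusted p under 0.05 and by DESeq2, and at 24 h 0 were by both. Over all genes 17.1% were lower at 6 h and 31.2% at 24 h, so 3 of 12 lay near that background. Among them SCO2, an assembly factor of cytochrome c oxidase, had log2 fold changes of -1.53 (SE 0.37, edgeR adjusted p = 0.000871) and -1.92 (SE 0.36, edgeR adjusted p = 1.29e-05). The copper chaperone ATOX1 had -1.53 (SE 0.43, edgeR adjusted p = 0.00545) and -2.06 (SE 0.43, edgeR adjusted p = 8.03e-05), of which the first was not called without replicate 1 of dCBP-30 or replicate 1 of DMSO at 6 h (adjusted p up to 0.0677). In total reads 1 of 13 fell and 0 rose at 6 h (3 higher at an unadjusted p under 0.05, 1 by DESeq2), and 3 fell and 1 rose at 24 h. The shares of all genes in total reads were 7.47% higher and 8.67% lower at 6 h, and 15.0% and 16.1% at 24 h.

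Oxidants and electrophiles raise metallothioneins as well as targets of the factor NRF2, 9 of which were tested in T>C reads. At 6 h HMOX1, the heme oxygenase induced by metals, fell (-2.49, SE 0.69, edgeR adjusted p = 0.00434), and 0 rose. At 24 h 4 fell and 0 rose, with 0 higher by DESeq2 or at an unadjusted p under 0.05 at both times. The falls at 24 h were led by TXN (thioredoxin; -1.71, SE 0.34, edgeR adjusted p = 3.31e-05) and TXNRD1 (thioredoxin reductase; -1.63, SE 0.36, edgeR adjusted p = 0.000181), but with T>C scaling 3 of the 4 calls were lost, those of TXNRD1, SRXN1 and GCLC. Over all genes 17.1% were lower at 6 h and 31.2% at 24 h, beside 1 and 4 of the 9 tested here. In total reads 0 of 11 were called at 6 h by edgeR or DESeq2 (5 higher and 4 lower at an unadjusted p under 0.05), and 1 rose and 2 fell at 24 h. Of 7 glucocorticoid response genes tested in T>C reads, 4 fell at 6 h and 3 at 24 h and 0 rose, with 0 higher by DESeq2 or at an unadjusted p under 0.05; over all genes 17.1% and 31.2% were lower. SGK1, a kinase, fell by 4.19 (SE 0.46, edgeR adjusted p = 2.52e-11) and then by 2.69 (SE 0.39, edgeR adjusted p = 7.85e-08), TSC22D3, which encodes GILZ, fell by 1.81 (SE 0.25, edgeR adjusted p = 2.06e-08) at 6 h, and FKBP5, a co-chaperone of the glucocorticoid receptor, fell by 2.06 (SE 0.48, edgeR adjusted p = 0.000367) at 24 h on the log2 scale. In total reads 3 of 7 fell at 6 h, 0 rose by edgeR, DESeq2 or an unadjusted p under 0.05, and at 24 h 2 fell and 1 rose. The total-read counts of both lists stand beside 7.47% of all genes higher and 8.67% lower at 6 h, and 15.0% and 16.1% at 24 h.

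Among 4 cofactors and partners of MTF1, 0 were called at 6 h in T>C or total reads by edgeR or DESeq2, with 1 lower in T>C reads and 2 higher and 1 lower in total reads at an unadjusted p under 0.05. At 24 h SP1, a factor that binds GC-rich promoters, fell in T>C reads from 23.1 ± 0.96 to 6.77 ± 1.30 RPM (SD, n = 3; -1.77, SE 0.22, edgeR adjusted p = 1.1e-09). Of all genes 31.2% were called lower in T>C reads at 24 h, and 15.0% were called higher in total reads. In total reads at 24 h the 2 that were called, CREBBP, which encodes CBP (1.23, SE 0.21, edgeR adjusted p = 1.65e-05), and EP300, which encodes p300 (1.83, SE 0.19, edgeR adjusted p = 1.82e-08), were higher. These 2 genes encode the proteins that dCBP-30 degrades, so their RNA does not measure them.

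Genes with a similar course were looked for by Pearson's correlation of log2(RPM + 1) of total reads over the 18 labelled libraries, which share groups and scaling, so r is a description. For SLC30A1 the most similar of the 12272 genes tested included PRDM1, HES1, TNFAIP3 and TRIB1, with r from 0.976 to 0.981. For MT1X the 5 most similar were SP5, SMG8, ENSG00000265303, RBM22 and RBM48, with r from 0.814 to 0.856. MT2A came at rank 436 (r = 0.547) and MT1F at rank 1661 (r = 0.387) in the list of MT1X, and SLC30A1 had r = -0.718 with it. The 5 genes were picked from 12272 by their r, and the 18 libraries include those at 2 h that chose the set. No comparison between the family and other genes is read from these ranks.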

How the data were processed

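The 20 SLAM-seq libraries (3 for each of 6 groups and 2 without 4sU) were prepared with the QuantSeq 3′ kit after alkylation of 4sU. The authors trimmed the reads with Trim Galore, ran Slamdunk on 3′ UTRs of hg38 and deposited, per transcript, raw counts of reads, T>C reads, multimapping reads, covered T positions and conversions. These deposited counts carry no normalization, and versions are left out here. Drosophila spike-in RNA had been added before alkylation; its reads were not analysed here.

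Of 97466 transcript rows, 89088 matched a transcript of GENCODE release 44 by identifier, and in all 89088 the 3′ UTR had the same length. Genes were read through the transcript with the most reads. T>C and total counts were fitted with edgeR 4.0.16 (glmQLFit, glmQLFTest; R 4.3.3) over all 18 labelled libraries, with total reads times TMM factors as library sizes in both, after filterByExpr (minimum count 10). Contrasts were dCBP-30 over DMSO at 6 h and 24 h, their difference, and DMSO at 24 h over 6 h, with Benjamini-Hochberg adjustment. DESeq2 1.42.0 was an alternative. The scripts were tested on simulated counts. The 3 reads that a count of 0 allows cover counting error only. No 2 libraries of a group were copies (chi-square per degree of freedom 8.54 to 50.1).

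The members, the lists and the promoter motif were chosen with earlier results of these data known. The genes named are the 7 members; from each list, up to 2 with the largest fall and 2 with the largest rise in T>C reads at 6 and 24 h past the test, if the groups did not overlap and the higher one averaged 20 T>C reads or more; CREBBP and EP300, named after their values were seen; and for MT1X and the member with most reads, the 5 most correlated genes, of which 1 is not reported here. SLC30A3 and SLC39A13 were likewise named after their values were seen. Alternatives were other scalings, filters, thresholds and counting, fits per time point, a replicate block, and each library left out.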

Additional observations from a re-analysis of the deposited data

Results flagged for a closer look

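The response of SLC30A1 in total reads differed between the times: its log2 fold change at 24 h was 0.47 higher than at 6 h (SE 0.17, edgeR adjusted p = 0.0321). All 3 dCBP-30 libraries at 24 h stood above the 3 at 6 h. The adjusted p was 0.0584 with no filter on low counts, 0.0745 with reads summed over transcripts, and 0.0524 to 0.0926 without replicate 1 or 3 of dCBP-30 at 6 h, replicate 3 of DMSO at 6 h, replicate 3 of dCBP-30 at 24 h, or replicate 2 or 3 of DMSO at 24 h. In T>C reads the same difference was 0.23 (SE 0.24, edgeR adjusted p = 0.626).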

How the results depend on the processing

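The calls of SLC30A1 at 6 h were the same under every alternative run. In total reads at 6 h the members called higher changed from 2 to 1 when each time point was fitted alone (MT2A adjusted p = 0.0886) and in the fit with a replicate block (MT2A 1.22, adjusted p = 0.0536), and ran from 1 to 3 with 1 library left out; they were 3 without TMM factors (MT1X 1.30, adjusted p = 0.0118) and 3 in DESeq2 (MT1X 1.01, adjusted p = 0.0353). Members called lower were 0, not 1, at 24 h in T>C reads with DESeq2 on T>C size factors (SLC30A1 -0.96) and in total reads without TMM factors (SLC30A1 -0.59).

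Over all genes, T>C reads higher at 6 h numbered 238, against 518 with T>C scaling, 525 without TMM factors, 718 in DESeq2 with T>C size factors and 363 at an adjusted p under 0.1. At 24 h 219 were higher, against 759, 602 and 1036 in the first 3 and 127 with background subtracted, and 3148 lower, against 1513, 1763 and 1427. For 24 h against 6 h, 258 were higher, against 455 with T>C scaling and 539 in DESeq2 with T>C size factors, and 857 lower, against 498 and 570. In total reads without TMM factors, 1765 (917) were higher at 6 h, and 3689 (1841) higher and 1061 (1972) lower at 24 h.

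MTF1 changed sign in T>C reads at 24 h (0.38 with T>C scaling, 0.25 without TMM factors, 0.48 in DESeq2 with T>C size factors), and in total reads for 24 h against 6 h (-0.0311 with reads summed). With 1 library left out, MTF1 ran from -0.0354 to 0.37 in T>C reads at 6 h, from -0.10 to 0.23 in T>C reads at 2 h and from -0.0763 to 0.18 in total reads for 24 h against 6 h; MT1F ran from -0.30 to 0.59 for 24 h against 6 h and from -0.65 to 0.23 in vehicle. Same-numbered dCBP-30 and DMSO libraries of a time point had correlations of their deviations from -0.246 to 0.063 (median -0.036, n = 9). Differently numbered ones had correlations from -0.191 to 0.297 (median 0.021, n = 18). Deviations within a group of 3 libraries offset one another, so these values show no pairing by number but cannot exclude it. The replicate block changed no other call of a member. Depth limited the metallothioneins in T>C reads, where 4 of 7 members could not be tested.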
